A study of Homo sapiens with 2 samples.

Results

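Of 9 genes chosen as targets of the tumour suppressor p53 or as GADD45 genes (MDM2, CDKN1A, GADD45A, GADD45B, GDF15, BTG2, SESN1, TP53INP1 and BBC3), 8 had rows in the expression table, with 25 of its 34714 transcripts, and TP53INP1 was not analysed here. The members were taken by gene name from the 11589 gene symbols of the table. The cells were HepG2, an established human liver cancer line, exposed to fluid shear stress (FSS), the friction of fluid flowing over the cells, for 8 h, with cells kept in static culture as the control. Each condition gave 1 library, made by mixing 3 replicates of cells at passage 10 to 15. Values are FPKM, which scale the fragments of a transcript by its length in kilobases and by each 1000000 fragments mapped, and were summed over the transcripts of a gene. All rows together came to 323352 FPKM for FSS and 325712 FPKM for static cells, while the depth of sequencing is unknown. Since a condition had a single library, no difference below has a replicate check and no p-value is given.

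The label of the cells could be checked against few markers. Of 17 hepatocyte and HepG2 markers, 2 had a row. AMBP was at 0.0580 FPKM in FSS cells and ASGR1 at 0.176 FPKM, and both were listed at 0 in static cells, so these 2 markers did not bear out the label. The other 15 were not analysed here. Of 14 endothelial, fibroblast and leukocyte markers, 7 had a row, and they summed to 19.8 FPKM in FSS cells and 44.2 FPKM in static cells. Their part in the results below was not tested.

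p53 is a transcription factor that is kept low in resting cells because MDM2, itself a p53 target, marks it for degradation. When it is stabilised, for example after DNA damage, it switches on genes that stop the cell cycle (CDKN1A, BTG2), limit growth signalling (SESN1), or start cell death (BBC3). Several of these genes do not need p53. GADD45A, GADD45B, GDF15, CDKN1A and BTG2 also answer to stress kinases, the integrated stress response, NF-kB or growth factor signals, whereas MDM2, SESN1 and BBC3 are known mainly as p53 targets, although other factors can act on them.

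To show where p53 could act on these genes, the promoter windows of RefSeq (GRCh38.p14, a later build than the hg19 of the deposited values) were searched on both strands. Windows ran from 250 bases before to 50 bases after a start, and 12 windows covered 7 members, MDM2, CDKN1A, GADD45B, GDF15, BTG2, SESN1 and BBC3. GADD45A had no window, so no motif was searched for in its promoter. The p53 element is made of 2 adjoining copies of a 10-base motif, the p53 decamer. At up to 2 mismatches in its 20 bases it was found in 0.649% of 35116 promoter windows, and at up to 3 mismatches in 5.20%. At up to 2 mismatches MDM2 had a match, in the window of its internal start, and at up to 3 mismatches MDM2 had a further match there, and SESN1 and GDF15 each had 1. The windows of CDKN1A, GADD45B, BTG2 and BBC3 had none, which says only that these letters are not in these windows. A match is a description of the sequence and does not show that p53 binds there.

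The internal MDM2 window and the SESN1 window are shown because they hold p53 matches, in capitals, and the CDKN1A window as one without a p53 match. In the CDKN1A window the capitals mark the SP1 letters GGGCGG (or CCGCCC on the other strand), which were in 44.95% of all windows. The CDKN1A window has 4 matches, of which the last 2 overlap. Windows of BTG2, GDF15, MDM2 and SESN1 also held SP1 letters, left in lower case in the MDM2 and SESN1 stretches. Each stretch is 250 bases and ends just before the start. The MDM2 stretch is chr12:68808767-68809016 on the + strand, the SESN1 stretch chr6:109008989-109009238 on the - strand and the CDKN1A stretch chr6:36678464-36678713 on the + strand. For GDF15 only the match itself is shown, at chr19:18386186-18386205 on the + strand, from base 28 after the start.
MDM2: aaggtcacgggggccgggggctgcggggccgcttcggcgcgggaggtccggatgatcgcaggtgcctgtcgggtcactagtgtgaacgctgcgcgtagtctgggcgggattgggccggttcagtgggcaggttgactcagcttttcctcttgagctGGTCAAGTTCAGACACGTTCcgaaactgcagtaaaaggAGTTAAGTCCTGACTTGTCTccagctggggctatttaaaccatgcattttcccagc
SESN1: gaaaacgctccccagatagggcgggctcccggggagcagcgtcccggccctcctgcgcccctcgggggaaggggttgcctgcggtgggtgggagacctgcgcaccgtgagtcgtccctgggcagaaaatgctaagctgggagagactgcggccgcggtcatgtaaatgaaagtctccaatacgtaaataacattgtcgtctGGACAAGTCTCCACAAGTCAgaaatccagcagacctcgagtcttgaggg
CDKN1A: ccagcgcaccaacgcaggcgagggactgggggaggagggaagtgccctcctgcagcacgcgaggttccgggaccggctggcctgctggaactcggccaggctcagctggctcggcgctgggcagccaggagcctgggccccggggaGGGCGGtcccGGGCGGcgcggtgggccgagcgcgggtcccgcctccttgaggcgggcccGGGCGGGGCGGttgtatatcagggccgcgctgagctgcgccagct
GDF15: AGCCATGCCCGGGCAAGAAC

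The same 12 windows were searched for the letters of other stress factors. Each of these motifs is in a small share of all windows, so a lack of matches in 12 windows says little about the members. The AP-1 letters TGANTCA, in 7.71% of all windows, were in the internal MDM2 window and in that of BBC3. No listed BBC3 transcript begins within 60 bases of the start of this BBC3 window. The CRE TGACGTCA (1.85% of windows), the ATF4/CEBP element TGATGNAA (3.62%), the heat shock letters GAANNTTC (6.77%), the NF-kB letters (GGG, 2 of any base, then TTTCC, 1.91%), the EGR letters GCGTGGGCG (0.795%) and a single p53 decamer with a CATG core (1.57%) were found in no window of a member. A single decamer with any A or T pair as its core, in 6.63% of all windows, was in the SESN1 window shown. GADD45B had no match to any of the motifs searched, SP1 included.

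Among the members, the GADD45 genes, GDF15 and CDKN1A were higher in FSS cells, BTG2 and SESN1 were lower, MDM2 was close to the 1.5-fold mark and BBC3 was low in both libraries. The words higher and lower stand for a 1.5-fold difference in FPKM + 1, a scale that understates the change of low genes, and log2 ratios are of FSS over static on that scale. Of 7 members that reached 0.5 FPKM in either library, 4 were higher and 2 lower. Among all 11221 genes past that filter, 10.5% were higher and 29.5% lower, and the median log2 ratio was -0.25. After subtraction of -0.23, the median of the 7898 genes that reached 5 FPKM in either library (here called centring), the shares became 17.8% higher and 17.9% lower, and those of the members 5 and 2. In bulk RNA, a change in the number of cells of a kind and a change in RNA per cell cannot be told apart. The members were chosen with results of these libraries known, so these counts describe them and test nothing.

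**Figure D1:**
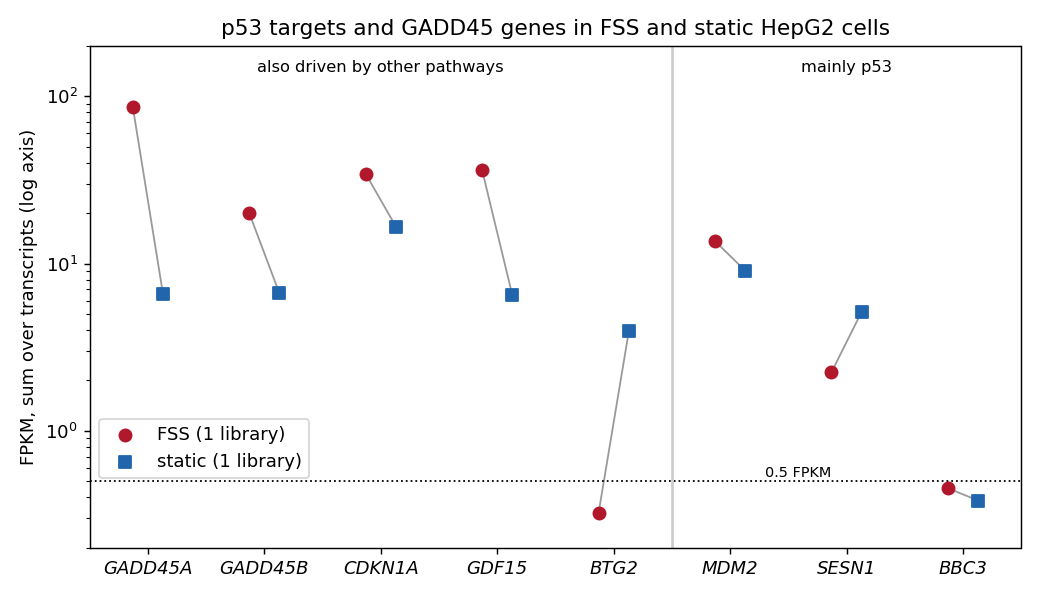
FPKM of each gene, summed over its transcripts, on a log axis, in the FSS library (red circles) and the static library (blue squares), with 1 library per condition and no error bars. GADD45A shows the widest gap, at 86.8 FPKM in FSS cells and 6.56 FPKM in static cells, while BBC3 lies under the dotted line at 0.5 FPKM in both.

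GADD45 proteins are small stress proteins that bind the kinase MAP3K4 and can in this way switch on p38 and JNK. They also bind PCNA and the CDK1-cyclin B kinase, and the activity of these kinases was not measured here. GADD45A (ENSG00000116717) was at 86.8 FPKM in FSS cells and 6.56 FPKM in static cells, a log2 ratio of 3.54, and ranked 19 from the highest of 11221 genes. At 86.8 FPKM it was the most abundant of the 8 members in FSS cells, whereas in static cells CDKN1A, MDM2 and GADD45B were above it. Its longer transcript, GADD45A-202, was at 78.9 FPKM in FSS cells and 5.26 FPKM in static cells, and GADD45A-201 was at 7.87 and 1.30 FPKM in the same order, so that both were higher.

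GADD45B (ENSG00000099860), which is best known as a target of NF-kB and TGF-beta, was at 20.04 FPKM in FSS cells and 6.62 FPKM in static cells. Its log2 ratio of 1.47 ranked 191. GADD45B-201 was at 12.7 FPKM in FSS cells and 4.06 FPKM in static cells and GADD45B-204 at 6.62 FPKM in FSS cells and 1.85 FPKM in static cells, with log2 ratios of 1.44 and 1.42, so the main transcripts differed by nearly the same factor. The short GADD45B-205 and GADD45B-207 were under 0.5 FPKM in both libraries. The static levels of the 2 GADD45 genes lay within 0.1 FPKM of each other, and in FSS cells GADD45A was 4.33 times GADD45B. GADD45A and GADD45B also stand in the study's list of YAP targets. For that list the study took YAP targets from an earlier report and kept those that differed in its own expression data.

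GDF15 (ENSG00000130513), a secreted member of the TGF-beta family that marks cell stress, was at 36.2 FPKM in FSS cells and 6.45 FPKM in static cells. Its log2 ratio of 2.32 ranked 52. GDF15-201 held 97.7% of this in FSS cells and 99.8% in static cells. GDF15-203, which begins 3988 bases further upstream, was at 0.842 FPKM in FSS cells and 0.0116 FPKM in static cells, and GDF15-204 was listed at 0 in both.

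CDKN1A (ENSG00000124762) encodes p21, the inhibitor of cyclin-dependent kinases through which p53 stops the cell cycle. It was at 34.4 FPKM in FSS cells and 16.6 FPKM in static cells, a log2 ratio of 1.01 that ranked 481. This was the smallest of the 4 higher ratios, and its main transcripts did not share it. CDKN1A-201 was at 26.1 FPKM in FSS cells and 4.48 FPKM in static cells, a log2 ratio of 2.31, and made up 75.9% of the gene in FSS cells and 26.9% in static cells. CDKN1A-203 was at 7.44 FPKM in FSS cells and 7.88 FPKM in static cells. CDKN1A-208 was listed at 0 in FSS cells and was at 4.09 FPKM in static cells. In GENCODE release 29, CDKN1A-208 starts 2198 bases before CDKN1A-201, and CDKN1A-203 starts 52 bases after it. The transcripts of a gene share most of their sequence, so how reads were divided between them is an estimate.

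**Figure D2:**
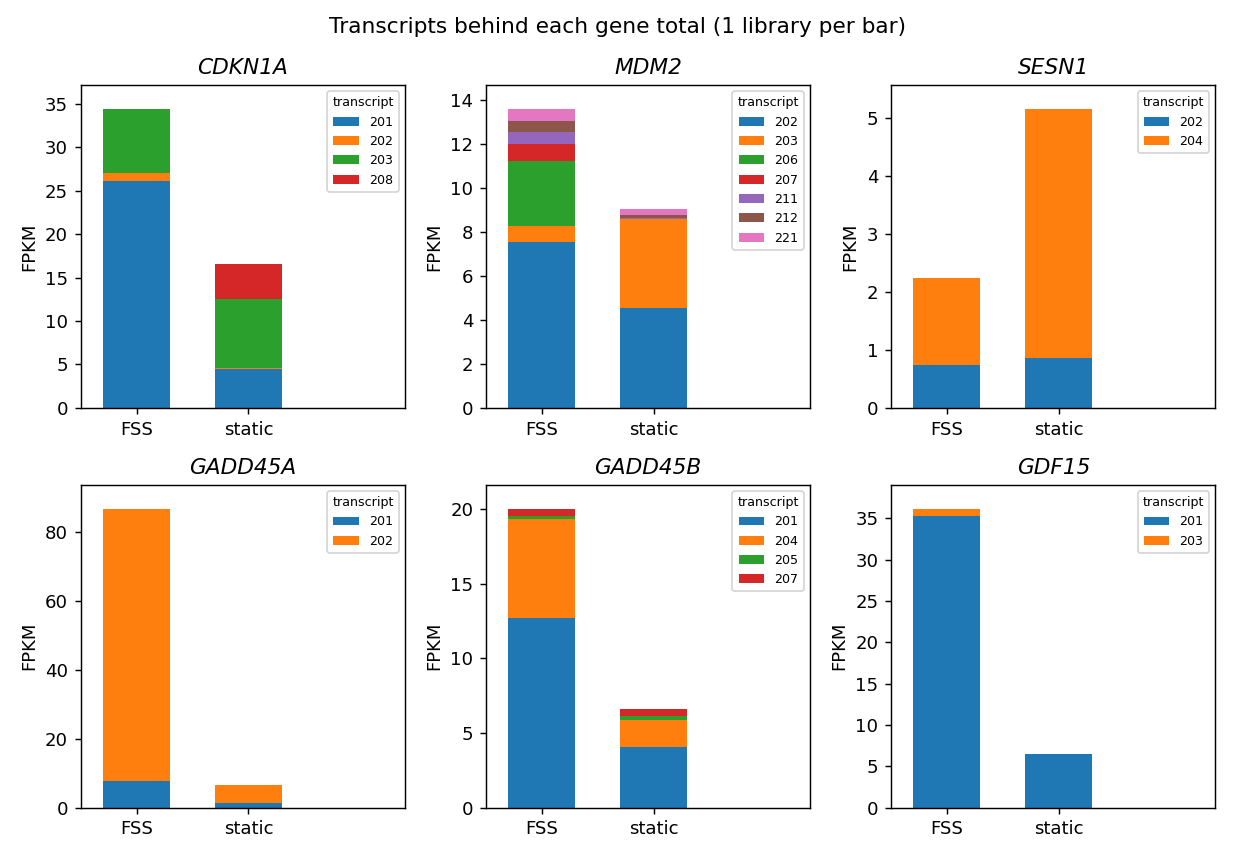
FPKM of each listed transcript (colours, named by number) stacked to the gene total, in the FSS library (left bar) and the static library (right bar) of 6 genes, each panel with its own axis from 0. In CDKN1A, transcript 201 is at 26.1 FPKM in FSS cells and 4.48 FPKM in static cells while 203 is nearly level, and in MDM2 transcript 203 is at 0.713 FPKM in FSS cells and 4.09 FPKM in static cells.

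BTG2 (ENSG00000159388), an antiproliferative protein that recruits the CCR4-NOT deadenylase to mRNA and is also an immediate early gene, was lower. Its 1 listed transcript was at 0.322 FPKM in FSS cells and 3.94 FPKM in static cells, a log2 ratio of -1.90, ranked 157 from the lowest. At such low values the size depends on the pseudocount, with log2 ratios of -3.26 at a pseudocount of 0.1 and -0.75 at 5, and it stayed past 1.5-fold at both.

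The targets known mainly for p53 did not share a direction. MDM2 (ENSG00000135679), the ubiquitin ligase of p53, was at 13.6 FPKM in FSS cells and 9.05 FPKM in static cells. Its log2 ratio of 0.54 ranked 1314, just inside the 1.5-fold mark, and it was past the mark after centring (0.77) and with no pseudocount (0.59). MDM2 has a first promoter that acts without p53 and an internal one that p53 drives. MDM2-202, of 12633 bases and the only listed transcript from the first start, was at 7.56 FPKM in FSS cells and 4.53 FPKM in static cells, a log2 ratio of 0.63. The 6 listed transcripts that start 841 to 1036 bases further on summed to 6.06 FPKM in FSS cells and 4.52 FPKM in static cells, a log2 ratio of 0.36. Of these, MDM2-211 and MDM2-212 begin within 60 bases of the start that follows the window shown above. They were at 0.543 and 0.493 FPKM in FSS cells and 0.0408 and 0.124 FPKM in static cells. The rest, with most of the sum, begin 1036 bases on, and which promoter they come from was not tested.

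Within that internal group the transcripts went opposite ways. MDM2-206 was at 2.98 FPKM in FSS cells and listed at 0 in static cells, while MDM2-203 was at 0.713 FPKM in FSS cells and 4.09 FPKM in static cells. Both have the same start in GENCODE release 29, with lengths of 1401 and 966 bases. The other 4 were under 1 FPKM in both libraries. As for CDKN1A, the division of reads between such transcripts is an estimate, and its part in these opposite values was not tested.

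SESN1 (ENSG00000080546), a sestrin that restrains mTORC1 and limits oxidative damage, was at 2.24 FPKM in FSS cells and 5.16 FPKM in static cells, a log2 ratio of -0.93, ranked 1551 from the lowest. At a pseudocount of 5 it was -0.49, which is inside the 1.5-fold mark. SESN1-204, from the most upstream start, was at 1.49 FPKM in FSS cells and 4.29 FPKM in static cells. SESN1-202, which starts 85264 bases further on, was at 0.746 FPKM in FSS cells and 0.868 FPKM in static cells, so the lower total came mostly from SESN1-204. The SESN1 window shown above belongs to another start, and no listed transcript begins within 60 bases of it. BBC3 (ENSG00000105327), which encodes the cell death protein PUMA, was at 0.453 FPKM in FSS cells and 0.382 FPKM in static cells, too low to be counted.

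Set side by side, 4 of 5 targets shared with other stress pathways were higher and 1, BTG2, was lower (the same once centred), at a median log2 ratio of 1.47. Beside this, 10.5% of all genes were higher and 29.5% lower (17.8% and 17.9% once centred). Of the mainly p53-driven targets only MDM2 and SESN1 passed the filter, at 0.54 and -0.93. With 2 genes on that side the sets cannot be compared further. Strand was not given in the sources used here, and in GENCODE release 29 CDKN1A, SESN1, MDM2 and BBC3 each overlap a gene on the opposite strand. Of these CPM, which overlaps MDM2, had a row, at 0.439 FPKM in FSS cells and 1.05 FPKM in static cells.

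**Figure D3:**
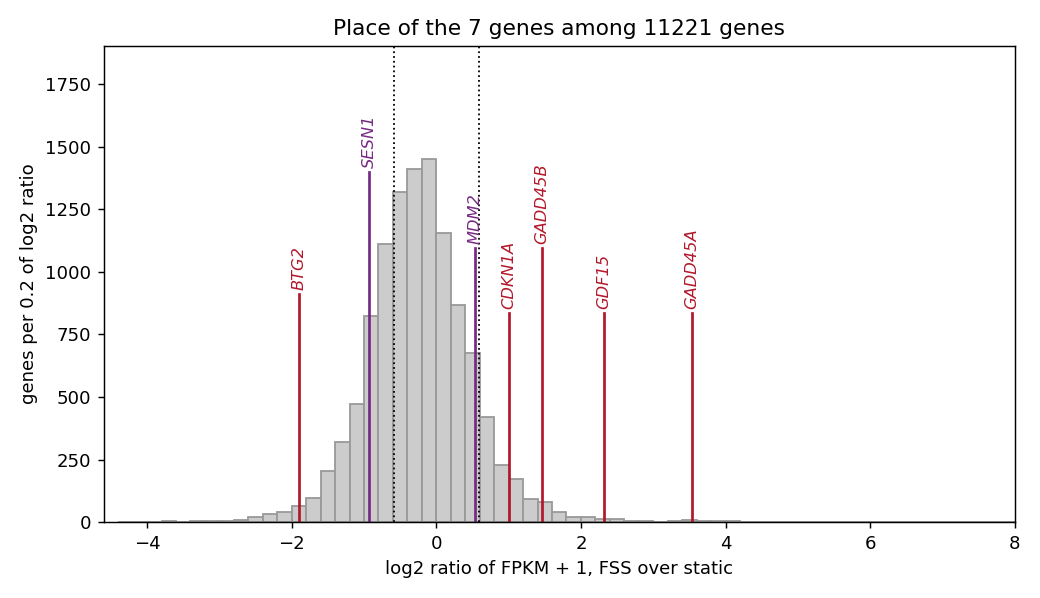
Number of genes per step of log2 ratio (FPKM + 1, FSS over static) for 11221 genes (grey bars), with vertical lines at the 7 members past the filter, red for targets shared with other pathways and purple for those known mainly for p53. The dotted lines mark 1.5-fold. GADD45A at 3.54 and GDF15 at 2.32 lie in the right tail, BTG2 at -1.90 in the left tail, and MDM2 at 0.54 just inside the dotted line.

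Other established p53 targets gave a wider view. Of 30 with a row among 33 listed, 5 were higher (16.7%) and 11 lower (36.7%), or 7 and 8 after centring. Among all genes the shares were 10.5% and 29.5% (17.8% and 17.9% after centring), so these counts lay near those of all genes. Their median was -0.17 on the log2 scale, beside -0.25 for all genes. SESN2, a relative of SESN1 that is also a target of ATF4, was at 82.98 FPKM in FSS cells and 6.93 FPKM in static cells, a log2 ratio of 3.41. PMAIP1, which encodes the cell death protein NOXA and also answers to ATF4, was at 31.1 FPKM in FSS cells and 9.18 FPKM in static cells. ZMAT3, an RNA-binding protein, was at 1.72 FPKM in FSS cells and 8.36 FPKM in static cells.

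Genes in the next sentences were picked for their values. The other 3 higher targets were TNFRSF10A, a death receptor for TRAIL, PLK2 and AEN, with log2 ratios of 1.35, 1.11 and 0.79. Of the targets with a part in DNA repair, XPC was at 5.40 FPKM in FSS cells and 12.9 FPKM in static cells, POLH at 2.54 and 6.86 FPKM, and DDB2 at 2.68 and 5.22 FPKM in the same order. RRM2B, which supplies nucleotides for repair, was level, at 4.15 FPKM in FSS cells and 3.96 FPKM in static cells. CCNG1, which encodes cyclin G1, was at 5.31 FPKM in FSS cells and 18.6 FPKM in static cells. BAX was at 31.4 FPKM in FSS cells and 35.6 FPKM in static cells. DDB2, like FAS and TNFRSF10B, was within 1.5-fold after centring.

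**Figure D4:**
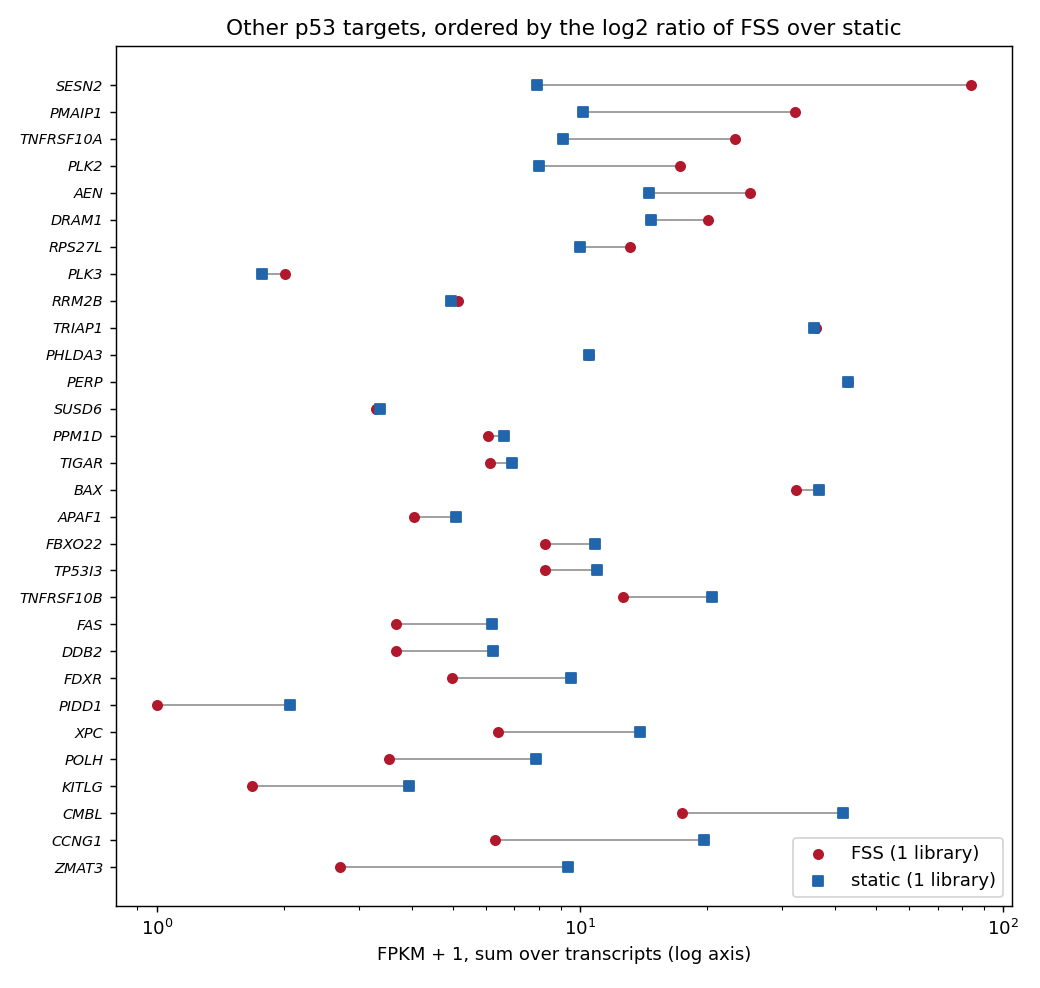
FPKM + 1 on a log axis for 30 other p53 targets, in the FSS library (red circles) and the static library (blue squares), ordered by log2 ratio. SESN2 at the top is at 82.98 FPKM in FSS cells and 6.93 FPKM in static cells, and ZMAT3 at the bottom is at 1.72 FPKM in FSS cells and 8.36 FPKM in static cells.

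Genes that act on the p53 protein varied. MDM4, the relative of MDM2 that blocks p53 activity, was at 1.13 FPKM in FSS cells and 1.57 FPKM in static cells. USP7, which removes ubiquitin from MDM2 and p53, was at 21.3 FPKM in FSS cells and 5.91 FPKM in static cells. CHEK2, a kinase of the DNA damage response, was at 10.4 FPKM in FSS cells and 17.6 FPKM in static cells, and was within 1.5-fold after centring.

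Relatives of the members often had other ratios than the members themselves. Beside CDKN1A, the inhibitor genes CDKN1B, which encodes p27, and CDKN1C, which encodes p57, were lower, at 4.98 and 5.44 FPKM in FSS cells against 19.6 and 11.9 FPKM in static cells. The sestrins SESN1 and SESN2 went opposite ways. In the BTG/TOB family TOB1 was lower beside BTG2, at 18.9 FPKM in FSS cells and 44.3 FPKM in static cells, while BTG1, BTG3 and TOB2 had log2 ratios of 0.04, 0.02 and -0.18. TP53INP2, the relative of TP53INP1, had a log2 ratio of -0.51. GADD45G, SESN3 and BTG4 were not analysed here.

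The counts for partners of GADD45 proteins and of p21 are to be read beside the 10.5% higher and 29.5% lower of all genes (17.8% and 17.9% once centred). Of 11 GADD45 partners 1 was higher and 2 lower (2 and 2 once centred), at a median of -0.39. MAPK14, which encodes p38, was at 19.3 FPKM in FSS cells and 9.64 FPKM in static cells, CCNB1, which encodes cyclin B1, at 60.4 FPKM in FSS cells and 112 FPKM in static cells, and CDK1 had a log2 ratio of -0.56. Of 9 cyclins, kinases and other proteins bound by p21, 0 were higher and 3 lower (0 and 1 once centred). CCND3, CCNA2 and CCNE2 had log2 ratios of -1.26, -0.76 and -0.69. A further list holds genes of mitosis and DNA replication that can be repressed through p21 and the DREAM complex. Of these 10 of 16 were lower (62.5%, beside 29.5% of all genes) and 0 higher, at a median of -0.65. Once centred 4 of 16 were lower, beside 17.9% of all genes. PLK1, CDC25C and AURKA had log2 ratios of -1.31, -1.30 and -1.16. Whether p21 acted on any gene of this list was not tested.

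Proteins that act with BBC3, the sestrins and BTG2 differed from list to list. Their counts, too, are to be read beside the 10.5% higher and 29.5% lower of all genes (17.8% and 17.9% once centred). In the BCL2 family, which decides between cell survival and death, 3 of 13 were higher and 2 lower (4 and 1 once centred), at a median of -0.37. Besides PMAIP1, the survival gene MCL1 was higher, at 194 FPKM in FSS cells and 92.3 FPKM in static cells, and BCL2L2, also a survival gene, was lower, at 2.21 FPKM in FSS cells and 12.98 FPKM in static cells. Of 8 genes of the GATOR complexes, through which sestrins act on mTORC1, 0 were higher and 4 lower, at a median of -0.54. Once centred 1 of the 8 was higher and 1 lower, a share no larger than the 17.8% and 17.9% of all genes. NPRL3, MIOS and WDR59 had log2 ratios of -0.82, -0.62 and -0.47. Of 7 CCR4-NOT genes 1 was higher and 0 lower, and the higher one was CNOT1, at 49.5 FPKM in FSS cells and 29.6 FPKM in static cells. CNOT6 and CNOT3 had log2 ratios of -0.24 and -0.18, the second of which was 0.05 after centring.

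The transcription factors of other pathways that act on the shared targets lay far apart. Of 13, 6 were higher and 3 lower (8 and 3 once centred), at a median of 0.57. The shares of all genes were 10.5% higher and 29.5% lower (17.8% and 17.9% once centred). DDIT3, which encodes CHOP of the integrated stress response, had a log2 ratio of 3.56, beside 3.54 for GADD45A. MYC, a repressor of CDKN1A and GADD45A, had one of -3.93, and FOS, a subunit of AP-1, one of -3.26. The other 10 fall outside the naming rule. Of these RELA, JUN, NFE2L2, ATF3 and CEBPB were higher, with log2 ratios of 1.64, 1.57, 1.44, 0.95 and 0.79, and EGR1 was lower, with -2.18. ATF4, KLF6, NFKB1 and KLF4 were within 1.5-fold, with -0.31, -0.11, 0.45 and 0.57, of which NFKB1 and KLF4 were higher once centred. ATF4, named above beside SESN2 and PMAIP1, was at 341 FPKM in FSS cells and 422 FPKM in static cells. With 1 library per condition these values stand side by side, and whether any of the factors acted on the members was not tested.

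**Figure D5:**
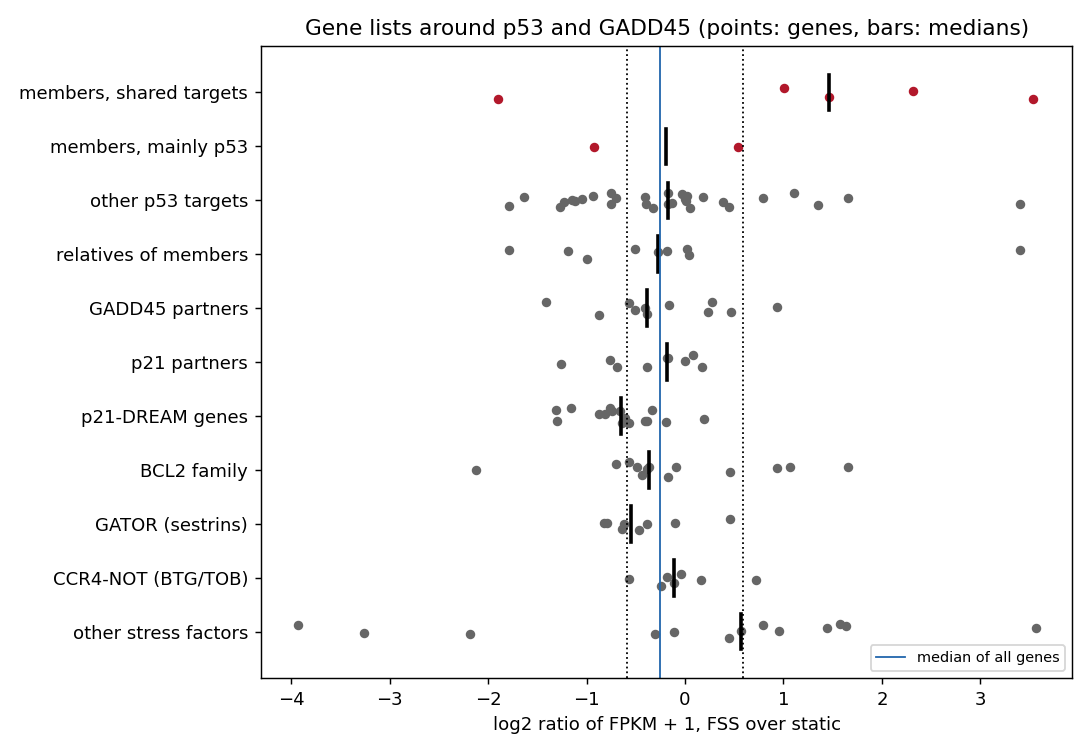
Log2 ratios (FPKM + 1, FSS over static) of the genes past the filter in each list (points) with the median of the list (black bar), the median of all genes (blue line, -0.25) and 1.5-fold (dotted lines). The members shared with other pathways have a median of 1.47, the other p53 targets -0.17 and the p21-DREAM genes -0.65, and lists share some genes.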

How the data were processed

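The authors deposited 1 table of FPKM per transcript for 2 libraries, 1 from FSS cells and 1 from static HepG2 cells. Tools in the processing notes of the submitters are HISAT2 2.0.5, STAR 2.5.2b, cutadapt and StringTie, on build hg19, and by the study's methods abundance was estimated with StringTie and FPKM taken out with Ballgown. FPKM depend on the total mapped in a library, so a few abundant genes can lower the rest. Counts and depth are unknown. Further value columns numbered 0.

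Gene values were sums over transcripts, and a gene was kept if it reached 0.5 FPKM in either library. The log2 ratio used a pseudocount of 1 and a gene was called at 1.5-fold, with no test. The members and the 12 gene lists beside them were chosen with earlier results of these data known. Outside the members, the text names the relatives of members, and up to 3 genes per list with the largest absolute log2 ratio at a mean of at least 5 FPKM. A further gene of this rule, and the counts of the list that holds it, are not reported here. Genes named otherwise were chosen after their values were seen. COP1 was read under its older symbol. All 25 transcripts of the members matched GENCODE release 29 by name, 16 of them with the same gene version (not those of MDM2 and GADD45A). Promoter sequences came from RefSeq (GRCh38.p14). The comparison of GADD45 proteins was not run. Alternatives were a pseudocount of 0.1 or 5, centring, rescaling each library to 1000000, the highest transcript, a fold of 2, other filters, and, added after seeing the data, no pseudocount and the p53 motif with mismatches. The steps were tested on simulated data. The software was matplotlib 3.10.9, pandas 2.3.3 and numpy 2.4.6 under Python 3.11.15.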

Additional observations from a re-analysis of the deposited data

How the results depend on the processing

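GADD45A, GADD45B, GDF15 and CDKN1A stayed at least 1.5-fold higher under every alternative run for them, and 0 results changed sign while called. By its highest transcript CDKN1A was at 2.31 on the log2 scale, in place of 1.01, and the median of the shared targets was then 2.29. BTG2 had log2 ratios of -3.26 and -0.75 at pseudocounts of 0.1 and 5, -2.71 after rescaling each library to 1000000 and -3.61 with no pseudocount. MDM2 passed 1.5-fold after centring (0.77), by its highest transcript (0.63) and with no pseudocount (0.59), so that 1 mainly p53-driven target was higher after centring and by the highest transcript. SESN1 had a log2 ratio of -0.49 at a pseudocount of 5. At that pseudocount, and at a fold of 2, 1 member was lower in place of 2 and 0 mainly p53-driven targets were lower. The lower genes among the other p53 targets numbered 6 at a pseudocount of 5 and 7 at a fold of 2, in place of 11. The cause of these moves was not tested. The unknown depth limits the reading of low genes such as BBC3, BTG2 and the minor transcripts. No paired analysis was possible because each condition had 1 library.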

Other observations

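Among the markers of other cell types with a row, 3 of 7 were lower (2 after centring) and 3 higher. Of all genes, 29.5% were lower and 10.5% higher (17.9% and 17.8% after centring). Several of these markers are near the floor, and at a pseudocount of 5 only 1 was lower and 1 higher. COL1A1, which encodes a chain of type I collagen, was at 5.15 FPKM in FSS cells and 28.0 FPKM in static cells, and LUM, a proteoglycan of the matrix, was at 6.71 FPKM in FSS cells and 11.9 FPKM in static cells. COL3A1 was the other lower marker, at 0.305 FPKM in FSS cells and 1.77 FPKM in static cells. The 3 higher ones were CD68, at 5.22 FPKM in FSS cells and 1.56 FPKM in static cells, CD14, at 0.836 FPKM in FSS cells and 0.147 FPKM in static cells, and the fibroblast marker DCN, at 0.907 FPKM in FSS cells and listed at 0 in static cells. The endothelial marker CDH5 was at 0.634 FPKM in FSS cells and 0.818 FPKM in static cells.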
